A study of Allium sativum with 42 samples.

Results

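Root and pseudostem shared genes are garlic genes whose mean level in both roots and pseudostems stood at least 4 times above that in every other group of a survey of organs and bulb ages. They were picked by level: the lower of the root and pseudostem mean had to be at least 10 FPKM (a read count scaled to transcript length and to the mapped total of the library) and at least 4 times the highest mean among the 12 other groups. The rule found 59 of the 58219 gene IDs in the table. Because the rule used the root and pseudostem means against every other group, those levels are given as a description, without a test. Tests were kept for differences that the rule did not set directly: root against pseudostem, leaf against sprout, and late against early bulbs. The root and pseudostem values of the first of these also chose the genes, so its counts are not independent of the rule.

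All 42 RNA-seq libraries came from field-grown garlic (Allium sativum) of the cultivar Ershuizao, in 14 groups of 3 libraries with no treatment. Roots, pseudostems, leaves and garlic sprouts were labelled 212 days old, flowers 217 days and buds 10 days. Bulbs were taken at 192, 197, 202, 207, 212, 217, 222 and 227 days, a span that ran from before expansion to its end. The growth protocol dates the harvest of the organs to the day of the 217-day bulb sampling, which differs from the label of 212 days. Nothing in the labels says that the 3 libraries of a group came from separate plants, so p-values rest on the spread among samples of a group, which could be technical. In bulk tissue, fewer cells of a type and less RNA per cell cannot be told apart.

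The garlic pseudostem is the false stem formed by the rolled bases of the leaves, which stand on the bulb and carry the green blades. Roots grow from the basal plate under the bulb and take up water and minerals. The files pair no gene ID with a name, a function or a sequence, so the genes are described by ID and measured level, and the identity of each organ could not be checked against named marker genes.

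Depth ranged from 5.9 to 35.4 M reads per library, as recovered from the steps in the FPKM values. The leaf libraries held 5.9, 10.4 and 15.6 M, all below the sprout libraries with 21.6, 22.3 and 17.8 M. The 3 root libraries held 14.4, 14.3 and 12.4 M and the 3 pseudostem libraries 19.4, 18.9 and 15.0 M. A single gene of the 59 had a median of 573 reads in a root library and 506 in a pseudostem library, and the lowest value was 11 reads, for Asa0G03094.1 in pseudostem replicate 3. In 192-day bulbs the median was 2 reads, and 38.4% of the values were 0 reads. Levels in young bulbs are therefore known with little precision.

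Pseudostem replicate 2 stood apart for these genes. It was the highest pseudostem library for 42 of the 59 genes (71.2%) and replicate 3 for the other 17, while replicate 1 was highest for 0. Among all 13638 genes that averaged 10 FPKM or more there, replicate 2 was highest for 44.5%, replicate 1 for 34.0% and replicate 3 for 21.5%. Summed over the 59 genes, pseudostem replicates 1, 2 and 3 held 3373, 8560 and 4712 FPKM. When the rule was applied without replicate 2, it found 35 genes, 31 of them among the 59. Its part in the results was not tested beyond the values given without it.

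The rule also gives a background for the size of the group. Applied to each of the 91 pairs of groups, it found 0 genes for 71 pairs and from 1 to 8 genes for 15. Leaf and pseudostem shared the most genes, 75, followed by root and pseudostem with 59, root and flower with 38, bud and sprout with 21, and leaf and sprout with 16. Root alone met the rule with 735 genes and pseudostem alone with 67. Leaf and root, by contrast, shared 7. A gene high at several bulb ages cannot pass for 1 of them, which keeps the counts of pairs with a bulb age low.

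In root and pseudostem the 59 genes spanned a wide range of levels. The lower of both means ran from 10.2 to 591 FPKM with a median of 40.3. It was 100 FPKM or more for 12 genes, from 50 to 100 for 14 and under 50 for 33. The ratio of that mean to the highest other group ran from 4.05 to 15.8 with a median of 5.86. It was at least 8 for 12 genes and under 5 for 19, so many members were also measurable in another group. In total the genes held 0.958% ± 0.197 of summed FPKM in root (SD, n = 3) and 0.460% ± 0.219 in pseudostem. Leaf was next with 0.0456% ± 0.0153, and bulbs at 192 and 197 days were lowest with 0.0066% ± 0.0024 and 0.0065% ± 0.0038.

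**Figure D1:**
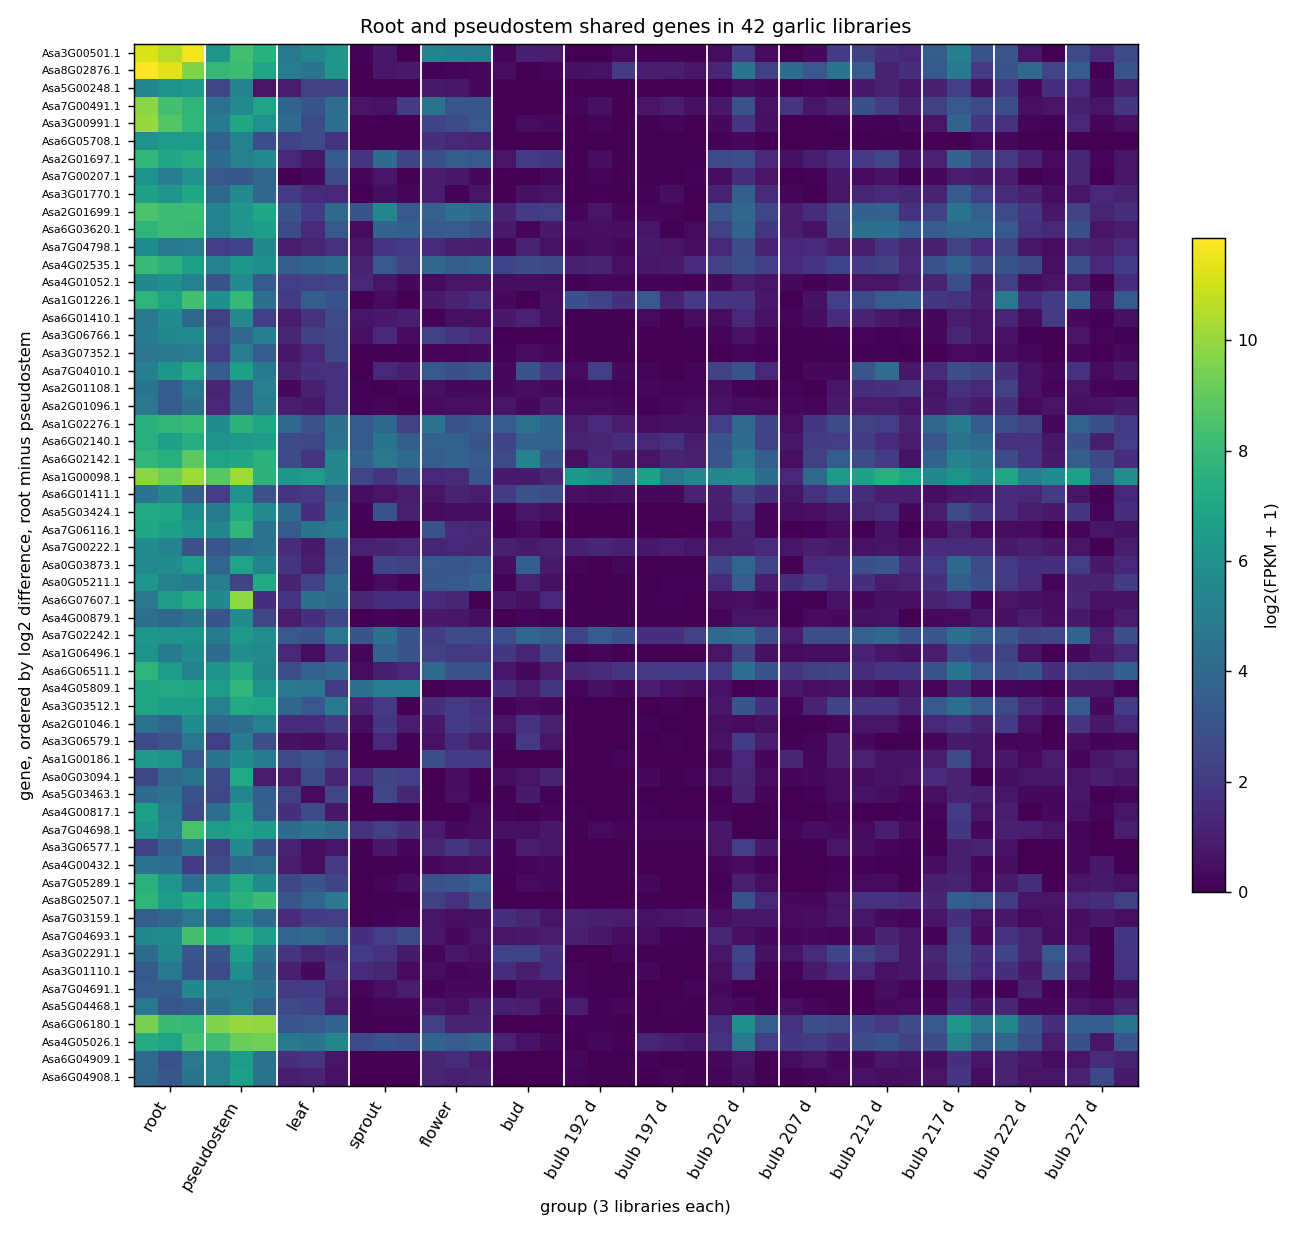
Heatmap of log2(FPKM + 1) for the 59 genes (rows, ordered by the log2 difference of root minus pseudostem) in the 42 libraries (columns, 3 per group, groups split by white lines). Root and pseudostem columns are bright for most genes, with dark cells such as Asa6G07607.1 and Asa0G03094.1 in pseudostem replicate 3. Leaf has the highest other mean for 33 genes, and 49 and 53 genes average under 1 FPKM in bulbs at 192 and 197 days.

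Asa1G00098.1 had the highest lower mean. It measured 890, 597 and 1112 FPKM in the root libraries and 438, 1132 and 203 FPKM in the pseudostem libraries. In bulbs it was present at every age, with means from 32.6 ± 42.1 FPKM in the 207-day group to 131 ± 40.6 FPKM in the 212-day group, and in leaf it averaged 70.6 ± 24.9 FPKM. It stayed low in bud (1.01 ± 0.352 FPKM), flower (3.72 ± 3.72 FPKM) and sprout (4.38 ± 1.80 FPKM). The 2 organs overlapped in this gene, and its lowest pseudostem library was above its highest bulb library.

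Asa6G06180.1 was second, at 680, 268 and 240 FPKM in root and 772, 1036 and 989 FPKM in pseudostem. It was nearly absent from sprout (0.045, 0 and 0 FPKM) and from 192-day bulbs (0.067, 0.096 and 0.033 FPKM). In 217-day bulbs it reached 8.17, 76.0 and 26.2 FPKM, the highest of its means outside root and pseudostem. All pseudostem libraries of this gene lay above all root libraries, and all 6 lay above the other 36 libraries.

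The widest margin over the other groups belonged to Asa4G00817.1, whose lower mean was 15.8 times its next highest group, leaf. Its root libraries read 103, 31.5 and 5.84 FPKM and its pseudostem libraries 18.7, 95.4 and 11.5 FPKM, against 1.99, 5.21 and 0.749 FPKM in leaf and 0 FPKM in each sprout library. The next widest was Asa2G01096.1 at 10.8 times, with 25.4, 10.3 and 19.7 FPKM in root and 1.56, 9.70 and 30.3 FPKM in pseudostem. Both genes varied more between libraries of the same organ than between the organs. For the latter, pseudostem replicate 1 was below the highest leaf library, at 2.27 FPKM.

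At the fold threshold, members and non-members differed little. Just inside stood Asa2G01697.1 with a ratio of 4.05 and Asa7G02242.1 with 4.06, and just outside stood Asa3G05588.1 and Asa6G05709.1, both with 3.99. Asa7G02242.1 averaged 69.8 ± 5.47 FPKM in root, 54.2 ± 25.3 FPKM in pseudostem and 13.3 ± 6.50 FPKM in 202-day bulbs. Asa3G05588.1 averaged 21.6 ± 5.32 FPKM in root, 20.8 ± 13.2 FPKM in pseudostem and 5.21 ± 2.05 FPKM in bud. Asa6G05709.1, whose ID number follows that of the member Asa6G05708.1, averaged 217 ± 10.9 FPKM in root and 36.3 ± 34.9 FPKM in pseudostem, against 9.11 ± 4.86 FPKM in leaf.

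Single libraries separated less cleanly than group means. For 40 of the 59 genes every root and every pseudostem library was above all 36 other libraries. The rule, which used these same values, favours such separation, so the count is a description. For the other 19 the lowest of the 6 fell below at least 1 of them, and that lowest library was pseudostem replicate 1 for 10 genes, pseudostem replicate 3 for 7, pseudostem replicate 2 for 1 and root replicate 3 for 1. The highest of the 36 other libraries was leaf replicate 3 for 23 genes and leaf replicate 2 for 10.

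Spread between libraries of an organ was large for these genes. Their median coefficient of variation was 75.0% in pseudostem, with a range from 12.5% to 162%, and 48.8% in root, with a range from 7.84% to 114%. Over all genes averaging 10 FPKM or more in the organ the medians were 17.9% in pseudostem and 22.1% in root. A high value in a single library raises a mean and helps a gene past the rule, so this spread is a description too. The highest pseudostem library was at least 4 times the lowest for 32 of the 59 genes, against 4.55% of 13635 genes at that level with no library at 0. In root this held for 18 of the 59, against 6.80% of 12060 genes.

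The widest spans, in genes chosen after their values were seen, were those of Asa6G07607.1 and Asa0G03094.1. Asa6G07607.1 measured 45.3, 906 and 2.03 FPKM in the pseudostem libraries, a span of 447 times, and 24.7, 98.9 and 156 FPKM in the root libraries. Asa0G03094.1 had 5.82, 144 and 0.954 FPKM in pseudostem, and 4.84, 16.4 and 22.7 FPKM in root. In both genes pseudostem replicate 2 carried the mean. At the other end, Asa7G04691.1 had 24.7, 28.1 and 21.9 FPKM in pseudostem but 9.42, 10.3 and 46.1 FPKM in root, where replicate 3 was high.

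Different genes peaked in different libraries. With pseudostem replicate 2 highest, 21 genes had root replicate 3 highest, 14 had root replicate 1 and 7 had root replicate 2. With pseudostem replicate 3 highest, 11 had root replicate 1, 5 had root replicate 3 and 1 had root replicate 2. Across the 59 genes, log2(FPKM + 1) of pseudostem replicates 2 and 3 correlated at r = 0.351, less than either did with pseudostem replicate 1 (0.759 and 0.731). Root replicates correlated at 0.719 to 0.909. These correlations run over genes, which are not independent replicates. Of the 59 genes, 18 met the rule without any 1 of the 6 root and pseudostem libraries.

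Some members had neighbouring IDs and near-parallel levels. With a distance of at most 10 ID numbers, chosen after the IDs were seen, 13 genes (22.0%) fell into 6 sets: 5 pairs and 1 set of 3. By the same measure 44.9% of the genes of root alone, 29.9% of those of pseudostem alone and 24% of those of leaf and pseudostem had a neighbour in their list, and a longer list finds neighbours more easily. Deviations from the organ means over the 6 root and pseudostem libraries correlated at 0.723 to 0.994 within the 8 neighbour pairs (median 0.964). Over the 1703 other pairs of the 59 genes they ran from -0.999 to 0.998 with a median of 0.370. The 6 points of each pair share library and depth, and reads of near-identical neighbours could have been divided between them.

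Asa6G04908.1 and Asa6G04909.1 followed each other closely. The former had 34.9, 103 and 23.2 FPKM in pseudostem and 14.6, 8.09 and 22.7 FPKM in root. The latter had 35.3, 92.9 and 20.3 FPKM in pseudostem and 16.4, 6.85 and 25.0 FPKM in root. Both peaked in pseudostem replicate 2, and each had 0 FPKM in all sprout and bud libraries. In another pair, Asa2G01697.1 and Asa2G01699.1, replicate 3 was the highest of the pseudostem libraries, and every root library was higher still. Asa2G01697.1 had 17.1, 35.0 and 49.8 FPKM in pseudostem and 234, 132 and 168 FPKM in root, and Asa2G01699.1 had 39.4, 71.1 and 132 FPKM and 364, 278 and 292 FPKM. The set of 3, Asa7G04691.1, Asa7G04693.1 and Asa7G04698.1, shared a high root replicate 3, at 46.1, 333 and 343 FPKM, against at most 71.3 FPKM in the other root libraries. The neighbours Asa6G02140.1 and Asa6G02142.1 were less alike: their root libraries read 173, 105 and 165 FPKM and 229, 175 and 467 FPKM, highest in replicate 1 for the former and replicate 3 for the latter.

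**Figure D2:**
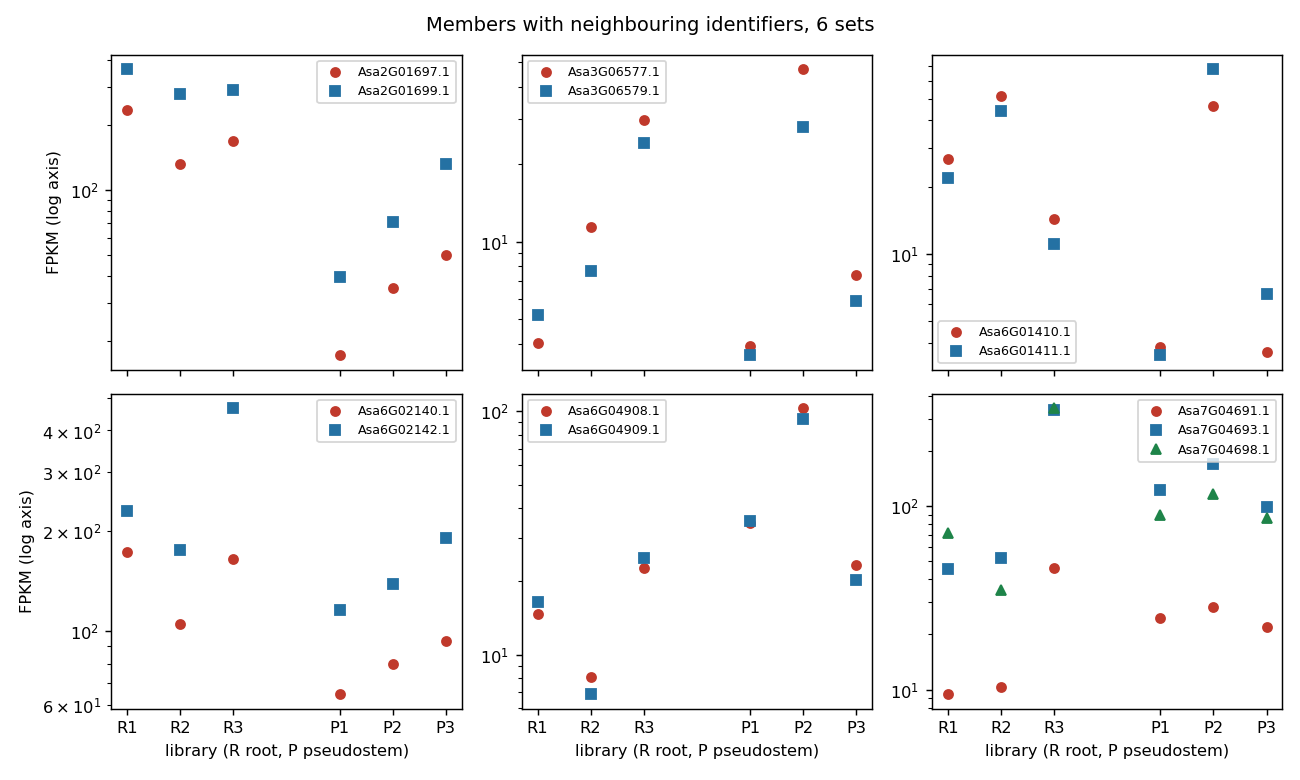
FPKM (log axis) of the members with neighbouring IDs in the 3 root (R1 to R3) and 3 pseudostem (P1 to P3) libraries, 1 panel per set and 1 point per gene and library. Asa6G04908.1 and Asa6G04909.1 are both highest in pseudostem replicate 2, and the set of 3 with Asa7G IDs in root replicate 3, while the pair Asa6G02140.1 and Asa6G02142.1 differs in its highest root library.

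The digit in the ID prefix was 7 for 12 members, 6 for 11 and 3 for 10, and 8 for 2. As a share of all IDs with that digit this ran from 0.037% for 8 to 0.185% for 7. Inferred coding length ran from 225 bases (Asa6G02142.1) to 2394 bases (Asa4G00432.1) with a median of 714, against a median of 729 for the 33536 genes tested among organs. Lengths rest on FPKM steps and on a step of 3 bases, which 94.5% of genes seen in at least 10 libraries followed.

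The first test asked in which of the 2 organs each gene was higher. Of the 59 genes, 17 were called higher in root and 4 higher in pseudostem (limma, adjusted p below 0.05 over 33536 genes and a log2 difference of at least 1). That is 28.8% and 6.8%, where 10.2% of all genes tested were called higher in root and 17.0% higher in pseudostem. The median difference was 0.63 on the log2 scale, against -0.29 over all genes. By group means, root was above pseudostem for 41 genes and pseudostem above root for 18, and 36 genes lay within 2 times of each other. The rule bounds the lower of both means and does not set their difference, although a gene far lower in 1 organ could not enter. The same values chose the genes, so these counts and the median are not independent of the rule. A single high library lifts a mean more than it lifts the mean of log2 values. Asa6G07607.1 averaged 318 FPKM in pseudostem and 93.1 FPKM in root, yet its log2 difference was 0.55, towards root. In the fit 16 of the 59 differences were towards pseudostem.

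Among the genes called higher in root, Asa3G00501.1 led. It had 2348, 1537 and 3111 FPKM in root and 75.3, 305 and 186 FPKM in pseudostem. The organs did not overlap, and the log2 difference was 3.78 ± 0.43 (SE, limma, adjusted p = 1.26e-06). Asa8G02876.1 followed with 3713, 2605 and 782 FPKM in root and 240, 278 and 122 FPKM in pseudostem (3.28 ± 0.57, limma, adjusted p = 0.00012). These 2 genes had the highest root means of the 59. Over the 17 genes the difference ran from 1.27 to 3.78. For 12 of them the root and pseudostem libraries did not overlap, a smaller share than the 92.0% among all genes called higher in root.

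Genes called higher in pseudostem numbered 4, with sizes from 1.39 to 1.58 on the log2 scale. They were Asa6G04908.1, Asa6G04909.1, Asa6G06180.1 and Asa4G05026.1. For Asa6G04908.1 the difference of root minus pseudostem was -1.58 ± 0.38 (SE, limma, adjusted p = 0.0025), and for Asa6G06180.1 it was -1.39 ± 0.33 (limma, adjusted p = 0.00192). Libraries of the organs did not overlap in these 2 of the 4 genes, against 94.8% of all genes called higher in pseudostem. In Asa6G04908.1 the margin was narrow, with the lowest pseudostem library at 23.2 FPKM and the highest root library at 22.7 FPKM. Without pseudostem replicate 2 its difference was -0.98 and was not called, nor was it in a fit of the 6 libraries alone (limma, adjusted p = 0.0646). Under median-of-ratios scaling, which moved the median of all genes by 0.29, Asa6G06180.1 was at -0.95 and was not called.

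For the other 38 genes no difference was called, and the spread between libraries was wide. Asa4G00817.1 had a difference of -0.02 ± 0.74 and Asa7G04698.1 one of -0.02 ± 0.50 (SE, limma, adjusted p = 0.994 and 0.985). For the former, a difference of 1 in either direction lay within 2 SE. Asa7G04698.1 measured 71.3, 34.9 and 343 FPKM in root and 89.0, 117 and 86.0 FPKM in pseudostem. In the latter, root libraries lay on both sides of all pseudostem libraries. Asa1G00098.1 was at 0.85 ± 0.53 (limma, adjusted p = 0.198), and at 1.49 without pseudostem replicate 2, which was called (limma, adjusted p = 0.0225). Asa2G01096.1 was at 0.95 ± 0.56 (limma, adjusted p = 0.178), and at 1.81 without pseudostem replicate 3, which was called (limma, adjusted p = 0.00353). These data do not show that such genes were equal in both organs.

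The count moved with single libraries and with scaling. Without pseudostem replicate 2, 23 of the 59 were called higher in root and 2 higher in pseudostem, against 3433 and 5680 of all genes. Without pseudostem replicate 1 the numbers were 10 and 4, against 3285 and 5404 of all genes. Under median-of-ratios scaling they were 20 and 2, while 4793 of all genes tested were higher in root and 3680 in pseudostem, against 3413 and 5699 on FPKM as deposited. Of the 35 genes chosen without pseudostem replicate 2, 8 (22.9%) were called higher in root and 4 (11.4%) higher in pseudostem in the main fit. The shares over all genes tested were 10.2% and 17.0%. Their median log2 difference was 0.34, against 0.63 for the 59, so the lean towards root was smaller in this set.

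**Figure D3:**
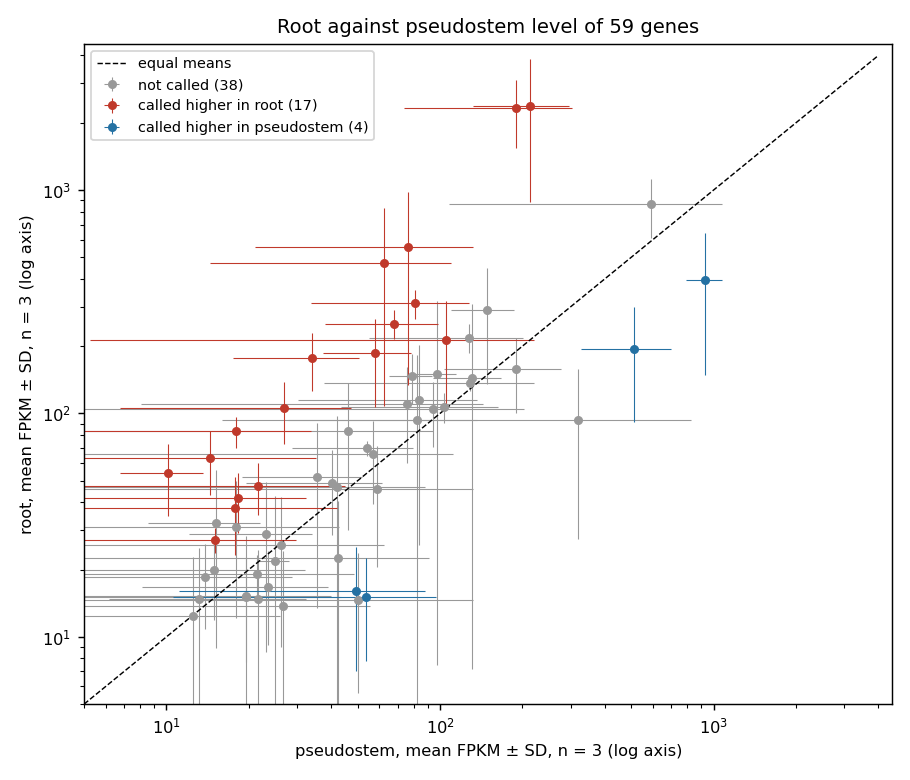
Mean FPKM ± SD (n = 3) of each of the 59 genes in pseudostem (x) and root (y), both on log axes, coloured by the limma call; bars that would reach 0 are drawn down to 5% of the mean. The 17 genes called higher in root lie above the line of equal means and the 4 called higher in pseudostem below it, and bars are long for most of the 38 others.

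The level of the genes of root alone in pseudostem is given beside that of the shared genes. The rule required their root mean to be at least 4 times every other mean, pseudostem included. A low pseudostem level was thus set in advance, and the list is no independent marker of root. The 735 genes had a median of 39.1, 38.9 and 43.7 FPKM in the root libraries and 1.68, 2.47 and 1.86 FPKM in the pseudostem libraries. Per gene the pseudostem mean was 5.72% of the root mean as a median (quartiles 1.38% and 12.5%). For the 59 shared genes it was 75.1% (quartiles 47.2% and 113%), and their median level was 21.4, 71.3 and 33.3 FPKM in the pseudostem libraries. Both lists were chosen on these means, so the gap is a description. In pseudostem replicate 2, the highest library for the shared genes, the genes of root alone were also highest, by a smaller factor. The 67 genes of pseudostem alone were at 30.1, 36.1 and 61.1 FPKM and thus highest in replicate 3. The part of root transcripts in the pseudostem level of the shared genes was not tested.

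**Figure D4:**
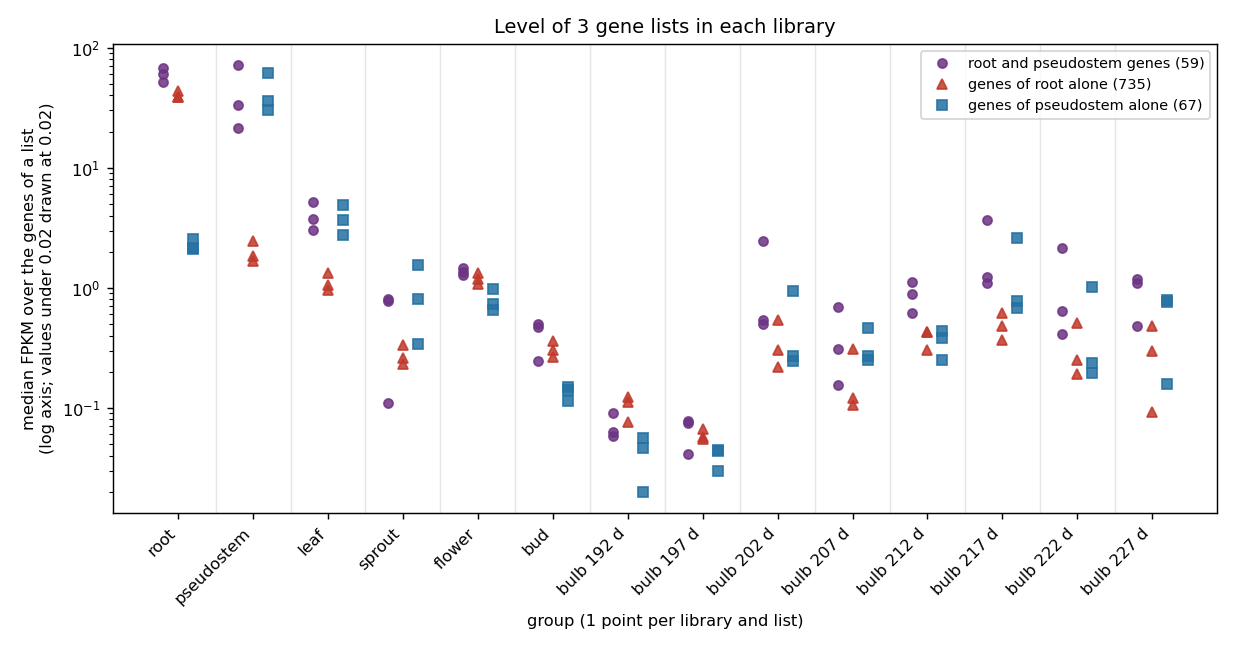
Median FPKM (log axis) over the genes of 3 lists in each library, 1 point per library and list, by group; values under 0.02 are drawn at 0.02. The 59 shared genes lie between 21.4 and 71.3 FPKM in root and pseudostem libraries and at most at 5.19 FPKM in any other library, while the genes of root alone stay at 2.47 FPKM or lower in pseudostem.

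Outside root and pseudostem, leaf was the organ with the highest level. It was the highest of the 12 other groups for 33 genes, a bulb age was for 17, flower for 5 and sprout for 4. The median over the 59 genes was 3.04, 3.76 and 5.19 FPKM in the leaf libraries, 0.110, 0.782 and 0.806 FPKM in the sprout libraries and 1.37, 1.47 and 1.28 FPKM in the flower libraries. In leaf 3 genes averaged under 1 FPKM, in sprout 33 and in bud 41. Genes of root alone had medians of 0.950, 1.05 and 1.32 FPKM in leaf and 0.261, 0.332 and 0.231 FPKM in sprout.

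The second test compared leaves with garlic sprouts, both labelled 212 days. The labels do not say whether leaf samples included the sheath bases that form the pseudostem. Of the 59 genes, 31 (52.5%) were called higher in leaf and 0 higher in sprout by limma, where 10.5% of 33536 genes were called higher in leaf and 15.7% higher in sprout. At an unadjusted p below 0.05, 33 genes were higher in leaf and 0 higher in sprout, against 19.0% and 33.4% of all genes. With voom on the recovered counts 27 and 0 were called, against 12.1% and 19.5%. All 59 genes passed the filter on low values because root and pseudostem libraries were part of the fit. In a fit of the leaf and sprout libraries alone 45 passed, of which 26 were higher in leaf and 0 in sprout, against 11.8% and 17.5% of 28456 genes. A gene seen in leaf alone passes that filter through leaf, so the count over the 45 is a description. With no filter, 28 of the 59 were higher in leaf and 0 in sprout, against 3479 and 5191 of 43932 genes. The median difference was 1.39 on the log2 scale, against -0.20 over all genes. Every leaf library was above every sprout library for 35 genes (18.9% of all genes tested) and the reverse held for 0 (33.8%). Among the 35 genes chosen without pseudostem replicate 2, 19 (54.3%) were higher in leaf. Genes higher in sprout numbered 3 without leaf replicate 3 and 2 without sprout replicate 1, against 5423 and 5481 of all genes. Under median-of-ratios scaling 31 and 0 of the 59 were called, and 4524 and 3761 of all genes, against 3533 and 5260 on FPKM as deposited.

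Asa3G00501.1 differed most between leaf and sprout, at 26.4, 41.9 and 70.6 FPKM in leaf and 0.074, 0.708 and 0 FPKM in sprout. Its difference was 5.16 ± 0.43 (SE, limma, adjusted p = 3.75e-08). Asa8G02876.1 had 32.0, 23.0 and 77.4 FPKM in leaf and 0, 0.640 and 0.806 FPKM in sprout (4.78 ± 0.57, limma, adjusted p = 2.29e-06). These 2 genes, highest in root, also had the highest leaf means after Asa1G00098.1, and stayed under 1 FPKM in each sprout library. Asa4G05809.1, chosen after its values were seen, went the other way by its means, with 25.7, 24.5 and 3.16 FPKM in leaf and 19.9, 30.5 and 33.2 FPKM in sprout. Its difference was -0.997 ± 0.542 (limma, adjusted p = 0.144) and was not called.

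In bulbs the genes were lowest at the 2 youngest ages. At 192 and 197 days the median over the 59 genes was between 0.041 and 0.091 FPKM in each library. Later libraries ranged from 0.154 FPKM (207 days, replicate 1) to 3.68 FPKM (217 days, replicate 2). The highest bulb mean was at 217 days for 33 genes, at 202 days for 9, at 222 days for 7, at 212 and 227 days for 4 each, and at 197 and 207 days for 1 each.

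Libraries of 1 age differed widely in this. At 202 days the medians were 0.539, 2.43 and 0.498 FPKM, at 217 days 1.09, 3.68 and 1.24 FPKM, and at 222 days 2.15, 0.644 and 0.410 FPKM. Genes of root alone were also highest in the same library of each of these ages, at 0.303, 0.539 and 0.219 FPKM, then 0.371, 0.617 and 0.477 FPKM, and then 0.513, 0.248 and 0.192 FPKM. Genes of pseudostem alone did the same, at 0.272, 0.940 and 0.244 FPKM, then 0.777, 2.60 and 0.685 FPKM, and then 1.01, 0.236 and 0.194 FPKM. So did the 75 genes of leaf and pseudostem, at 0.171, 0.313 and 0.097 FPKM, then 0.541, 1.75 and 0.307 FPKM, and then 0.604, 0.377 and 0.248 FPKM. The highest libraries of these ages held 29.0, 12.8 and 18.7 M reads, and 12.8 M was the lowest depth of any bulb library. The lists did not share a highest library at every age. At 227 days the shared genes were highest in replicate 3, at 1.19 FPKM against 1.09 FPKM in replicate 1. Genes of root alone (0.476 against 0.299 FPKM) and of pseudostem alone (0.796 against 0.769 FPKM) were higher in replicate 1 there. At 207 days the shared genes were highest in replicate 3 (0.691 FPKM), and genes of leaf and pseudostem in replicate 1 (0.313 FPKM). The part of root or pseudostem transcripts in the bulb levels of the shared genes was not tested.

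The third test compared bulbs at 227 and 192 days. Here 45 of the 59 genes passed the filter on low values, and 13 of them (28.9%) were called higher at 227 days and 0 lower, where 8.32% of 30430 genes were called higher and 21.1% lower. A gene seen in late bulbs alone passes the filter through them, so the count over the 45 is a description. With no filter all 59 were tested, and 11 were higher and 0 lower, against 5.53% and 14.3% of 44048 genes. At an unadjusted p below 0.05, 20 of the 45 were higher and 1 lower by limma, against 16.0% and 38.9% of all genes. By voom 14 were higher and 1 lower, against 10.1% and 26.7%. In a fit of the 6 libraries alone 15 genes passed and 8 were higher and 0 lower, against 7.05% and 20.8%. The median difference of those tested was 0.86, against -0.28 over all genes. The rule caps the level at every bulb age alike and leaves the difference between ages free.

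Asa6G06180.1 rose most, from 0.067, 0.096 and 0.033 FPKM (2, 3 and 1 reads) in the 192-day group to 10.5, 10.8 and 22.6 FPKM (207, 298 and 447 reads) in the 227-day group. Its difference was 3.79 ± 0.90 (SE, limma, adjusted p = 0.00177), and it missed the threshold with voom (adjusted p = 0.0527). Asa3G00501.1 went from 0, 0 and 0.269 FPKM to 5.28, 1.73 and 5.18 FPKM (2.13 ± 0.69, limma, adjusted p = 0.0158), and was not called without replicate 1 of the 227-day bulbs (limma, adjusted p = 0.0521). The neighbours Asa6G04908.1 and Asa6G04909.1 were among the 13 as well. Libraries of the 2 ages did not overlap for any of the 13, as in 91.1% of all genes called higher at 227 days. Of the 32 members tested and not called, 16 had no overlap either, in 1 direction or the other.

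The bulb count rested on few libraries. It was 6 without replicate 1, 2 or 3 of the 192-day bulbs, while 2140, 2284 and 2398 of all genes were called higher. Without replicates 1 and 3 of the 227-day bulbs it was 7 and 6, with 2399 and 2493 of all genes. Without replicate 2 of the 227-day bulbs it was 15, with 3049 of all genes. In that replicate the median over the 59 genes was 0.482 FPKM, against 1.09 and 1.19 FPKM in replicates 1 and 3. In each case 0 of the 59 genes were called lower, against 5419 to 7448 of all genes. With a pseudocount of 0.1 in place of 1, 26 genes were higher and 1 lower, against 10.7% and 25.0% of all genes. Under median-of-ratios scaling 17 and 0 were called, and 3985 and 4169 of all genes, against 2531 and 6417 on FPKM as deposited. Of the 35 genes chosen without pseudostem replicate 2, 28 were tested and 10 (35.7%) were higher, against 8.32% of all genes tested.

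**Figure D5:**
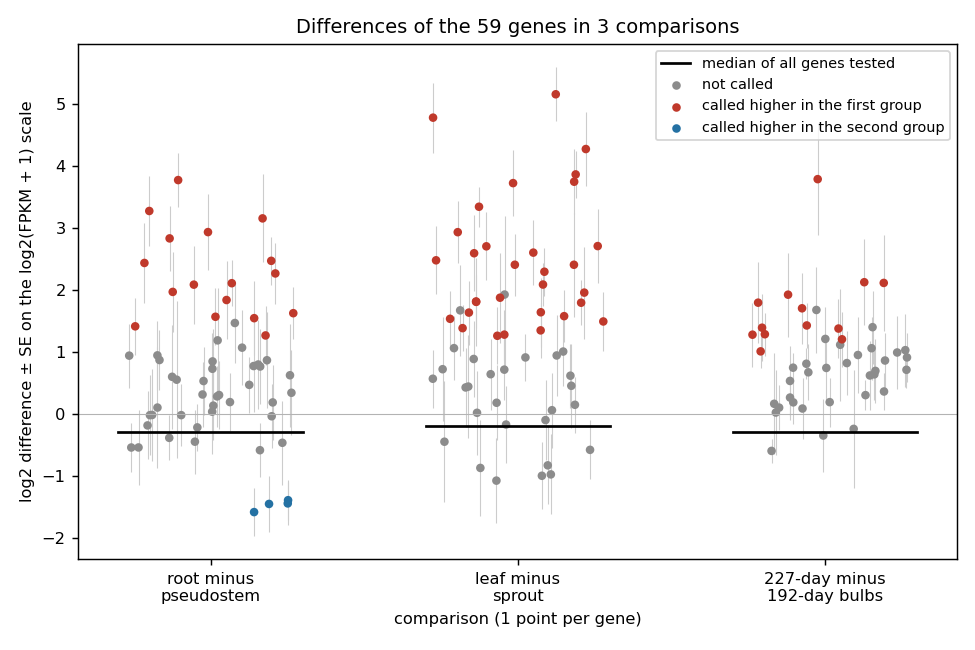
Log2 difference ± SE of each gene on the log2(FPKM + 1) scale in the 3 comparisons (59, 59 and 45 genes tested), coloured by the limma call, with the median of all genes tested as a black line. Leaf minus sprout has 31 genes called higher and 0 lower, and 227-day minus 192-day bulbs has 13 and 0.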

How the data were processed

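The deposited table held FPKM values made by the authors; the submitters' processing notes name Bowtie2 and RSEM, without versions. The reference is not given in the sources used here, and the unit was read from the values. Each of the 42 columns matched 1 sample title. FPKM sums were 1.11 to 1.30 M per library. It is not stated how reads shared by near-identical copies were assigned.

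Group means of FPKM as deposited chose the genes. The members, lists and named-gene rule were chosen with earlier results of these data known. Every gene above 0 gave whole reads (45750 genes, tolerance 0.002 reads); these served for depth and for 1 alternative (voom). Tests used limma 3.58.1 in R 4.3.3 on log2(FPKM + 1) with a variance trend and Benjamini-Hochberg adjustment, on genes reaching 1 FPKM in 3 or more libraries: 21 libraries of 7 organs (212-day bulbs as bulb) or 24 bulb libraries. Small differences near 1 FPKM are understated. No 2 replicates agreed within sampling noise (lowest chi-square per degree of freedom 10.83). The fits were tested on simulated data.

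Named genes were the 2 members highest by lower mean, by ratio, nearest either side of the fold threshold, and with the largest difference each way or the smallest difference. Other genes were named outside this rule, for a property given where they appear, and not all of them are marked as chosen later.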

Additional observations from a re-analysis of the deposited data

How the results depend on the processing

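The number of genes was 38 with group medians in place of means, 101 and 27 with fold thresholds of 3 and 6, 38 with a level threshold of 20 FPKM and 92 when bulbs were left out of the other groups. Leaving out 1 root or pseudostem library gave 35 to 83. Rescaling to TPM (54), median-of-ratios scaling (56) and a level threshold of 5 FPKM (84) stayed within 1.5 times. For root against pseudostem, 2 genes were called higher in pseudostem under median-of-ratios scaling and in a fit of the 6 libraries compared. Of all genes, 3680 and 5022 were. Leaving out 1 of the 6 libraries gave 10 to 23 higher in root and 2 to 6 higher in pseudostem. Of all genes, 2816 to 3433 and 5307 to 6233 were called. The 35 genes chosen without pseudostem replicate 2 were an alternative chosen after seeing the data. Of them 8 (22.9%) were higher in root and 19 (54.3%) higher in leaf than in sprout. The shares over all genes tested were 10.2% and 10.5%. For bulbs, 26 higher and 1 lower were called with a pseudocount of 0.1, 8 higher in a fit of 6 libraries and 1 lower with voom. The shares over all genes were 10.7% and 25.0%, 7.05%, and 26.7%. Leaving out 1 bulb library gave 6 to 15 higher and 0 lower, against 2140 to 3049 and 5419 to 7448 of all genes. For leaf against sprout, leaving out 1 library gave 24 to 28 higher in leaf and 0 to 3 higher in sprout. Of all genes, 3316 to 3520 and 4860 to 5481 were called. The count higher in sprout was 3 without leaf replicate 3 and 2 without sprout replicate 1. The causes were not tested.

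Named genes without a call reversed: Asa4G00817.1 was at 0.40 under median-of-ratios scaling, 0.18 under quantile normalization, 0.86 without pseudostem replicate 2 and 1.01 without root replicate 3 (range -0.95 to 1.01 with 1 library left out). Asa7G04698.1 was at 0.42 under median-of-ratios scaling, 0.12 without pseudostem replicate 2, and 0.19 and 0.69 without root replicates 1 and 2 (range -0.94 to 0.69). Asa3G05588.1 was at -0.14 without pseudostem replicate 1 (range -0.14 to 0.65). Over all settings of named genes, 224 values kept direction and side, 9 reversed, 5 lost a call and 2 gained one.

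Whether replicate numbers in the titles pair the samples could not be settled. Deviations of same-numbered root and pseudostem libraries correlated at -0.053, -0.069 and 0.09. For leaf and sprout the values were 0.111, -0.134 and 0.008, and for 192-day and 227-day bulbs -0.144, -0.051 and 0.162. Low values cannot exclude a small effect shared by paired samples. With the replicate block, 16 genes were higher in root and 4 in pseudostem, against 3382 and 5662 of all genes. In late bulbs 13 were higher and 0 lower, against 2508 and 6410. In leaf and sprout 28 and 0 were higher, against 3501 and 5223. Many values in young bulbs, sprouts and buds rest on a few reads, which limits their precision. Bulbs at 192 and 197 days held 29.5 to 35.4 M reads per library, sprouts 17.8 to 22.3 M and buds 11.5 to 30.2 M. The leaf libraries held 5.9, 10.4 and 15.6 M.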
